A study of Mus musculus with 19 samples.

Results

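The 10 genes described here serve astrocyte homeostasis, and they were followed through their regions of open chromatin as mouse neural stem cells became astrocytes. They encode the glutamate transporters Slc1a2 and Slc1a3, the enzymes Glul and Aldh1l1, the potassium channel Kcnj10, the water channel Aqp4, the urea transporter Slc14a1, the connexins Gja1 and Gjb6, and the calcium-binding protein S100b. A peak was assigned to a gene when its centre lay in the gene body or within 20 kb of either end, in RefSeq coordinates of GRCm38. This rule took 73 of the 90154 peaks of the table, and all 73 passed the filter on low values. Slc1a2 had 13 peaks, Aldh1l1 12, Kcnj10 11, Slc1a3 10, S100b 7, Gjb6 5, Slc14a1 5, Gja1 4, Glul 3 and Aqp4 3. Peaks are named by the gene and the distance of their centre, in kb, from the start of the gene, with a plus sign downstream. For Aqp4 and Slc14a1 the distance was taken along the chromosome from the nearer end, because their strand was not used here. A gene-start peak has its centre within 1 kb of the start, and 7 of the genes had one. Aqp4, Gjb6 and Slc14a1 had none.

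The measurement was ATAC-seq, a readout of chromatin accessibility that rests on a transposase cutting open DNA. The cells were wild-type C57BL/6J neural stem cells taken at embryonic day 14 from the ventricular zone of the brain and grown with EGF as neurospheres (NSPs, 3 libraries). Differentiating astrocytes were the same kind of cells moved to coated plates in medium with serum, for 24 h (3 libraries), 72 h (3) or 1 week (4). Under inflammatory conditions, tumor necrosis factor (TNF), an inflammatory cytokine, was present at 50 ng/ml for 24 h (3) or 72 h (3). All groups were wild type and were cultures without a cell sort, so that a change in the share of cells with an open region and a change within each cell cannot be told apart. Each stem cell preparation came from 1 brain, and the study describes its data in general as coming from independent experiments. The sources do not tie each library of a group to its own brain, so the p-values measure the spread between these libraries, of which some may be technical.

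Astrocytes take up the glutamate and potassium that active neurons release, and pass water, ions and metabolites through their endfeet and through gap junctions to their neighbours. Glutamate enters through sodium-coupled transporters and is turned into glutamine by glutamine synthetase, the product of Glul. Several of these genes are already active in radial glia and neural stem cells, in particular Slc1a3 and Glul, while others mark mature astrocytes. Open regions at gene starts are promoters, and those further away often hold enhancers.

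Reads in peaks ranged from 9640256 to 39349111 per library, and the NSP libraries were the deepest. Spearman correlations between replicates, across peaks, lay between 0.942 and 0.979 in the other groups and between 0.916 and 0.983 in NSPs, where replicate 1 stood apart. At the gene start of Gfap, the intermediate filament gene of astrocytes, this library had a normalised read count of 186, against 75.8 and 61.1 in the other NSP libraries. Among the 30 of the 73 peaks that were higher at 1 week than in NSPs, it was the highest NSP library at 22, with a median of 1.42 times the mean of the other two. Results that rest on NSPs are therefore given with and without it where they turn on it. The names of the 72 h (with and without TNF) and 1 week libraries carry a tag that NSP and 24 h libraries lack. The tag and the time thus cannot be told apart in comparisons of 72 h or 1 week with NSPs or 24 h. The same holds where the TNF effect at 72 h is set against that at 24 h. None of the 73 peaks was among the 212 peaks of the table that were near zero in every tagged library and open in every untagged one. Of the 8 markers of astrocytes, 7 had a gene-start peak and Aqp4 had none, and these peaks summed to 2470 to 3055 normalised reads in NSPs and 2308 to 2510 at 1 week. Those of 5 of 6 neural progenitor markers (Pax6 had none) summed to 2773 to 3104 and 2737 to 2967. The 3 gene-start peaks of the 7 oligodendrocyte-lineage markers summed to 2637 to 3207 normalised reads in NSPs and to 956 to 987 at 72 h, while Sox10, Pdgfra, Mbp and Mog had no such peak. Of the 6 microglial markers, Aif1, Cx3cr1 and Csf1r had no such peak. The peaks of Tmem119 (72.5 in NSPs and 27.2 at 1 week, adjusted p = 0.000304) and P2ry12 (82.6 and 37.9, 0.000198) were lower at 1 week by limma-trend, and that of Spi1 (212 and 255, 0.104) was not called. The part of other cell types in the results was not tested.

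The promoters of 4 genes are shown because their gene-start peaks carried distinct results below. The peak rose at Gja1, fell at S100b, fell to 72 h at Glul, and was lower with TNF at Kcnj10. Each sequence is the 250 bases before the RefSeq start in GRCm38.p6, 5′ to 3′ on the strand of the gene. All lie on the plus strand, at chr10:56377050-56377299 for Gja1, chr10:76253586-76253835 for S100b, chr1:153899679-153899928 for Glul and chr1:172340960-172341209 for Kcnj10, and each lies whole inside its peak. Capitals mark the motif matches.
Gja1: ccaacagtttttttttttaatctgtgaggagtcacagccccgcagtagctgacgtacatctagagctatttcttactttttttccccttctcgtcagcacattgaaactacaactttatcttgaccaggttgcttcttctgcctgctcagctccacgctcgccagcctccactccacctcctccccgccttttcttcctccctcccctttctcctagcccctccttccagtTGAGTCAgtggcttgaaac
S100b: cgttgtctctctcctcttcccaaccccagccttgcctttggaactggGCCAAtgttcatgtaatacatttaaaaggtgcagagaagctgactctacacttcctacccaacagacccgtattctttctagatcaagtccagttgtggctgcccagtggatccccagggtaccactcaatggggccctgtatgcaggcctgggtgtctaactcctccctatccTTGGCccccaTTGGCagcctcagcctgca
Glul: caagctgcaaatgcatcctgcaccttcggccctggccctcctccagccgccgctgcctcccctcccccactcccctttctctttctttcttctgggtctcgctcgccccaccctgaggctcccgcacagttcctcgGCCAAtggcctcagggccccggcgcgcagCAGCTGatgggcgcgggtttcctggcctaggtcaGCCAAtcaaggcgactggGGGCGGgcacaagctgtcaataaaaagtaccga
Kcnj10: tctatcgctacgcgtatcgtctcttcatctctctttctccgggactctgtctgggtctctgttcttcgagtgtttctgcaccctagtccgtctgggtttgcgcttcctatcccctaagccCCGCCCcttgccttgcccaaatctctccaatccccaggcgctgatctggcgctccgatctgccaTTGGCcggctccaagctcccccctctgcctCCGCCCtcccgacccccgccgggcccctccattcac
The motifs searched on both strands were TGANTCA (AP-1), TTGGC (nuclear factor I), the nuclear factor I palindrome that joins this motif and its reverse complement, TTCNNNGAA (STAT), ACAAT (SOX), CAGATG and CAGCTG (E-boxes), TATAAA (the TATA box) and GGGCGG (the GC box). The TTGGC motif is part of the palindrome. Gja1 held 1 AP-1 match and none of the other motifs, and AP-1 letters occurred in 6.75% of 32851 mouse promoters of the same length. S100b held 3 TTGGC matches, Glul 2 and Kcnj10 1, a motif found in 41.5% of all promoters. Kcnj10 also had 2 GC boxes and Glul 1, against 32.7% of promoters with at least 1, and Glul had 1 CAGCTG, which 13% of promoters held. None of the 8 genes with a promoter entry had the palindrome, which 0.0365% of all promoters held, or CAGATG. These matches describe letters and show no binding.

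Accessibility of the 73 peaks changed in both directions from the first day. After 24 h, limma-trend called 15 peaks above NSPs and 21 below (adjusted p under 0.05), against 24.2% of all tested peaks higher and 23% lower. At 72 h, 24 were higher and 25 lower, beside 28.3% and 30.9% of all peaks. By 1 week, 30 were higher and 23 lower, beside 33.7% and 33.6%. These counts of called peaks were thus not far from the background of the table in any of the 3 comparisons. Median log2 fold changes of the 73 peaks were -0.02, -0.00 and 0.15 at these 3 times, and those of all peaks -0.07, -0.06 and 0.01. Scaling by total reads in peaks raised the median of all peaks to 0.11 at 24 h and 0.21 at 72 h, and the split of the 73 peaks became 23 higher and 11 lower at 24 h and 34 and 14 at 72 h. Without NSP replicate 1, 21 peaks were higher and 18 lower at 24 h, 25 and 23 at 72 h, and 32 and 20 at 1 week. Neighbouring peaks of a gene share their locus and are not independent.

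**Figure D1:**
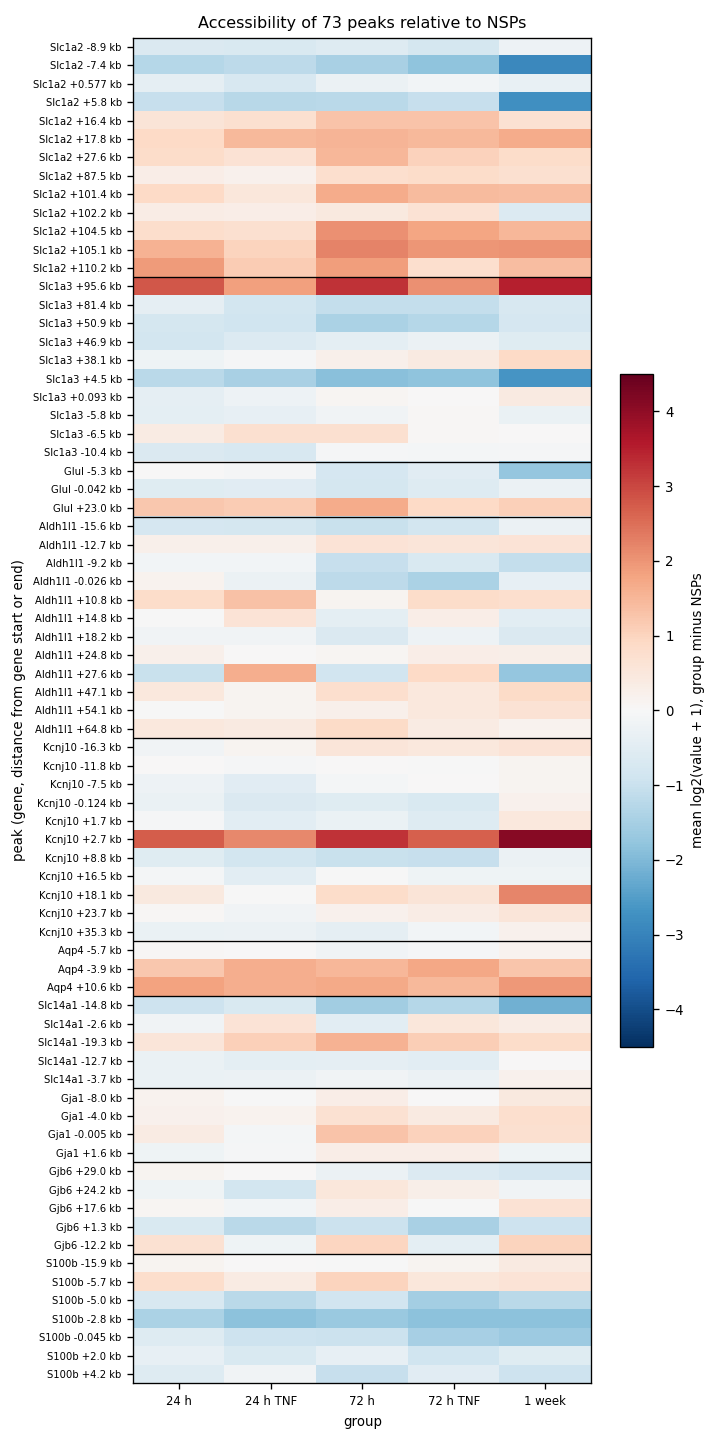
Mean of log2(normalised reads + 1) of each group minus that of NSPs, for the 73 peaks (rows, grouped by gene, labelled with the distance from the gene start in kb, or from the nearer end for Aqp4 and Slc14a1) in the 5 other groups (columns), red higher and blue lower than NSPs. Peaks of 1 gene differ in direction, and the strongest colour belongs to the Kcnj10 peak at +2.7 kb, with 4.08 at 1 week.

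The glutamate transporter Slc1a2, the main route of glutamate uptake in the adult forebrain, opened far inside the gene and closed near its 5′ end. At the +105.1 kb peak (chr2:102763118-102763618), normalised reads were 96.4, 35.3 and 29.2 in NSPs, 108, 137 and 181 at 24 h, 242, 234 and 196 at 72 h and 203, 199, 196 and 166 at 1 week. Every untreated differentiated library lay above every NSP library, and the highest NSP value was that of replicate 1. With TNF at 24 h the values were 94.6, 84.0 and 104, which overlapped NSPs through that replicate. The log2 fold changes over NSPs, on the scale of log2(value + 1), were 1.56 ± 0.26 (SE) at 24 h, 2.24 ± 0.26 at 72 h and 2.01 ± 0.24 at 1 week, with limma-trend adjusted p = 1.4e-05, 2.2e-08 and 2.6e-08. Without NSP replicate 1 the change at 1 week was 2.53. This peak was chosen after its values were seen. It lies in a run of 5 peaks between +101.4 and +110.2 kb, of which 4 rose at all 3 times and the peak at +102.2 kb at none. Of these calls, the one of +104.5 kb at 24 h was lost without NSP replicate 3 (adjusted p = 0.055).

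The +110.2 kb peak (chr2:102768197-102768697) rose from 16.3 ± 3.57 (SD, n = 3) in NSPs to 67.1 ± 22.5 (n = 3) at 24 h and stood at 43.8 ± 7.72 (n = 4) at 1 week. The tallest Slc1a2 peak, at +87.5 kb (chr2:102745514-102746014), had 811, 376 and 357 in NSPs and 725, 695, 867 and 873 at 1 week. NSP replicate 1 lay among the 1 week libraries there, so that the groups overlapped. The log2 fold change of 0.72 ± 0.17 (limma-trend adjusted p = 4.7e-04) became 1.10 without that library. Upstream, the -7.4 kb peak (chr2:102650593-102651093) fell from 88.7 ± 30.6 in NSPs to 11.9 ± 5.94 at 1 week (log2 fold change -2.90 ± 0.45, limma-trend adjusted p = 1.8e-06). The gene-start peak (chr2:102658566-102659066) went from 319 ± 59.2 to 250.2 ± 24.3, a call (adjusted p = 0.0423, limma-trend) that was lost without 1 week replicate 1, 1 week replicate 2, 1 week replicate 3, NSP replicate 1 or NSP replicate 2 (adjusted p = 0.081, 0.12, 0.051, 0.23 and 0.055). The RefSeq promoter entry of Slc1a2 (chr2:102706188-102706437) belongs to another start inside the gene, and no peak lay over it.

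Slc1a3, the glutamate transporter of radial glia and of cerebellar astrocytes, showed its deepest loss close to the start. The +4.5 kb peak (chr15:8706062-8706562), also chosen after its values were seen, had 663, 696 and 790.1 normalised reads in NSPs, 264, 319 and 336 at 24 h, 169, 203 and 204 at 72 h and 138, 104, 112 and 101 at 1 week. The untreated groups did not overlap at any step of this decline. Its log2 fold change at 1 week was -2.65 ± 0.13 (limma-trend adjusted p = 1.6e-16), and -0.76 ± 0.13 from 72 h to 1 week (adjusted p = 7.2e-05). At the far end, 18956 bp beyond the gene body, the +95.6 kb peak (chr15:8614918-8615418) was nearly closed in NSPs, with 12.3, 6.12 and 4.65. It held 62.6, 57.5 and 48.0 at 24 h and 87.3, 85.7, 101 and 90.1 at 1 week, with no overlap. The log2 fold change at 1 week was 3.50 ± 0.30 (limma-trend adjusted p = 2.5e-11).

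The tallest Slc1a3 peak, at +50.9 kb (chr15:8659623-8660123), fell from 2293 ± 463 in NSPs to 1321 ± 61.6 at 24 h and 853 ± 75.5 at 72 h, and was 1339.6 ± 139 at 1 week. Both the loss against NSPs at 1 week (-0.76 ± 0.11, adjusted p = 1.1e-06) and the gain over 72 h (0.65 ± 0.11, adjusted p = 6.9e-05) passed the limma-trend test, the gain under all alternatives but the loess correction. By contrast, the +38.1 kb peak rose late, from 563 ± 39.4 at 72 h to 882 ± 63.5 at 1 week (0.65 ± 0.12, limma-trend adjusted p = 1.4e-04), a call lost with total-read scaling and with the loess correction. Its gene-start peak (chr15:8710464-8710964) went from 251 ± 25.0 in NSPs to 189 ± 15.5 at 24 h and 329.9 ± 33.5 at 1 week, lower at 24 h (limma-trend adjusted p = 0.0223) and higher at 1 week (adjusted p = 0.0133). The first call was lost without 24 h replicate 1 or NSP replicate 3 (adjusted p = 0.096 and 0.098), and also with total-read scaling, with the loess correction and in a fit of the compared groups. The other was lost without 1 week replicate 4 (adjusted p = 0.053), with the loess correction and with a block by title number.

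Glul had the start of its gene open in every group. Its gene-start peak (chr1:153899637-153900137) had 1480.2, 1174 and 1301 normalised reads in NSPs, 868, 1003 and 862 at 24 h, 775, 791 and 737 at 72 h and 1068, 1028, 1149 and 1139 at 1 week. All 72 h libraries lay below all libraries of the other untreated times. The fall at 72 h was -0.77 ± 0.11 on the log2 scale (limma-trend adjusted p = 7.2e-07). The rise from 72 h to 1 week was 0.51 ± 0.10 (adjusted p = 2.9e-04), a call lost with total-read scaling and with the loess correction, which gave -0.04. The remaining Glul peaks moved in opposite directions. The one at +23.0 kb (chr1:153922725-153923225) went from 40.9 ± 16.0 in NSPs to 127 ± 19.1 at 72 h, and that at -5.3 kb (chr1:153894373-153894873) from 70.8 ± 10.4 to 24.4 ± 15.8 at 1 week, with limma-trend adjusted p = 1.8e-06 and 7.6e-05.

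Kcnj10, the inward-rectifying channel through which astrocytes buffer potassium, held the largest change of the 73 peaks. Just inside the gene, the +2.7 kb peak (chr1:172343685-172344185) had 256, 67.8 and 64.5 normalised reads in NSPs, 784, 708 and 613 at 24 h, 957, 901 and 1178 at 72 h and 1725, 1662, 2047 and 1718 at 1 week. The untreated groups followed each other without overlap, and NSP replicate 1 was the only NSP library above 100. Against NSPs, its log2 fold changes were 2.73 ± 0.27 (24 h), 3.26 ± 0.27 (72 h) and 4.08 ± 0.25 (1 week), with limma-trend adjusted p = 1.6e-09, 2.2e-11 and 1.4e-14. Without NSP replicate 1 they were 3.38, 3.91 and 4.73.

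A second Kcnj10 region opened late. The +18.1 kb peak (chr1:172359065-172359565), chosen after its values were seen, had 346, 219 and 272 in NSPs, 413, 431 and 293 at 24 h, 483, 431 and 540.4 at 72 h and 1189, 1111, 1411 and 1408 at 1 week. NSPs and 24 h overlapped, and every 1 week library was more than 2 times the highest 72 h library. The gain from 72 h to 1 week was 1.40 ± 0.15 (limma-trend adjusted p = 7.5e-08) and held under every alternative. In contrast, the gene-start peak (chr1:172340836-172341336) went from 1208 ± 145 in NSPs to 832 ± 56.9 at 72 h and 1379.7 ± 74.7 at 1 week. The tallest peak, at +8.8 kb (chr1:172349789-172350289), also had its lowest untreated mean at 72 h, with 2541 ± 141, 1287 ± 140.3 and 2102 ± 225. At +1.7 kb (chr1:172342675-172343175) the means were 1409 ± 223, 1142 ± 59.6 and 1934 ± 151. From 72 h to 1 week, 7 of the 11 Kcnj10 peaks were higher and none lower by limma-trend, beside 22.5% of all tested peaks higher and 16.2% lower. With scaling by total reads 5 of these 7 were still called higher, and with the loess correction 1, and all 7 changes stayed positive. The gene-start, +1.7 and +8.8 kb peaks, among the 7, are tall, with means of 1008, 1333 and 1751 over all libraries. Of all peaks of the table with a mean of at least 1000, 93.9% were higher in this comparison. The peak at +35.3 kb, 1 of the 7, lies at the start of the neighbouring gene Pigm, so that its assignment to Kcnj10 is uncertain.

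**Figure D2:**
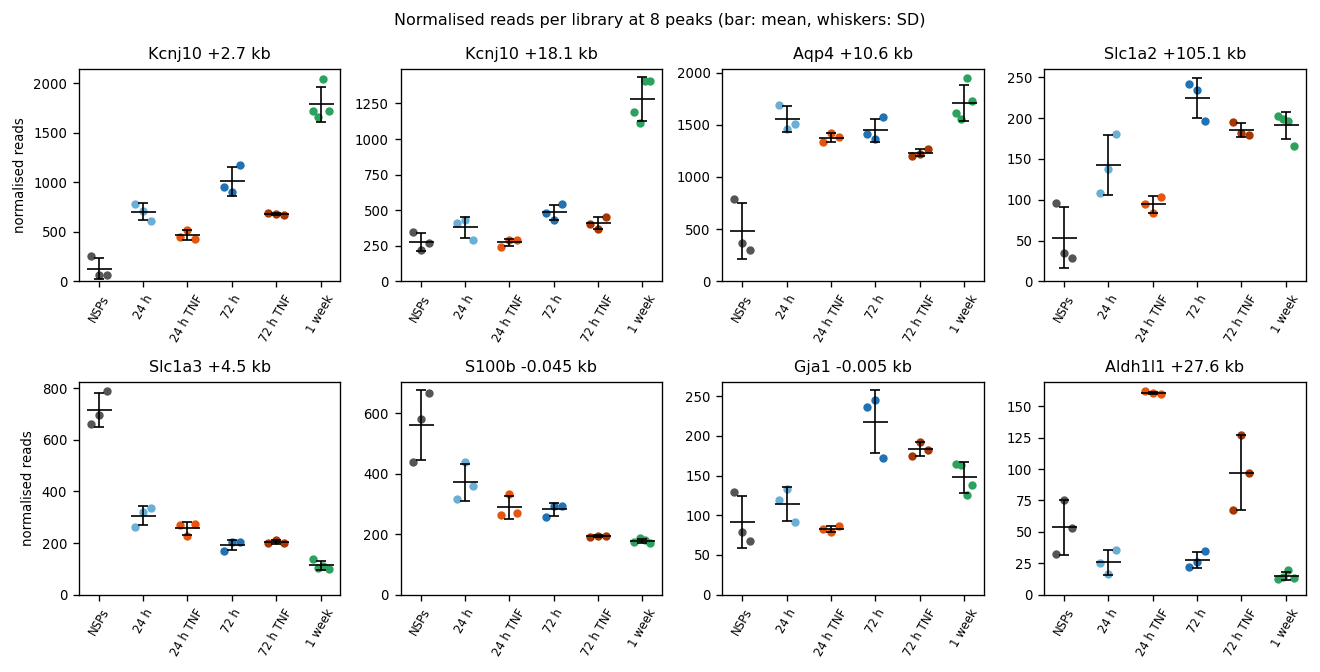
Normalised reads (y axes, linear and from 0) of each library (points) in the 6 groups for 8 peaks, with the group mean (bar) and SD (whiskers). The Kcnj10 peaks at +2.7 and +18.1 kb were highest in the 4 libraries of 1 week, the Slc1a3 peak at +4.5 kb and the S100b gene-start peak had their highest mean in NSPs, and the Aldh1l1 peak at +27.6 kb had its highest means in the groups with TNF.

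Aqp4, the water channel of astrocyte endfeet, gained accessibility within a day at 2 of its 3 peaks. The third, at -5.7 kb in the gene body, was already open in NSPs, with 1059, 1029 and 1095 normalised reads. It was not called at 24 h or 1 week (log2 fold changes 0.06 and 0.15, limma-trend adjusted p = 0.71 and 0.2). At 24 h it was called higher with total-read scaling and with the loess correction. The +10.6 kb peak (chr18:15421286-15421786), outside the gene beyond its higher-coordinate end, had 794, 364 and 301 normalised reads in NSPs, 1694, 1456 and 1511 at 24 h, 1409, 1361 and 1572 at 72 h and 1614, 1554, 1949.7 and 1724 at 1 week. All differentiated libraries were above all NSP libraries, and the untreated times overlapped among themselves. The log2 fold change was 1.80 ± 0.19 at 24 h and 1.94 ± 0.18 at 1 week (limma-trend adjusted p = 5.0e-09 and 7.7e-11), and 2.23 and 2.36 without NSP replicate 1. In the gene body, the -3.9 kb peak (chr18:15406787-15407287) went from 119 ± 2.58 in NSPs to 282 ± 34.5 at 24 h (adjusted p = 5.5e-09), and here NSP replicate 1, with 119, lay between the other two NSP libraries.

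Slc14a1, a urea transporter, had its tallest peak at -12.7 kb (chr18:78129165-78129665), with 1799 ± 289.6 in NSPs, 1350.3 ± 153 at 72 h and 1805 ± 131 at 1 week. Neither the fall to 72 h nor the rise from 72 h to 1 week was called with total-read scaling or with the loess correction. Of all peaks of the table with a mean of at least 1000, 93.9% were higher at 1 week than at 72 h. The -14.8 kb peak (chr18:78085023-78085523), below the gene, declined from 189, 176 and 181 in NSPs to 60.5, 58.6 and 65.0 at 72 h and 28.2, 25.7, 66.0 and 50.4 at 1 week. Its 72 h and 1 week libraries overlapped, and both groups lay below NSPs. The log2 fold change at 1 week was -2.18 ± 0.24 (limma-trend adjusted p = 6.2e-09).

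Gja1, the most abundant connexin of astrocytes, was the only gene whose gene-start peak was called higher at 72 h. This peak (chr10:56377045-56377545) had 129, 78.7 and 67.8 normalised reads in NSPs, 119.5, 133 and 91.1 at 24 h, 237, 245 and 172 at 72 h and 165, 164, 125 and 138 at 1 week. The 72 h libraries were above all others without TNF. At 72 h the log2 fold change was 1.28 ± 0.20 (limma-trend adjusted p = 4.0e-06), and 1 week lay -0.55 ± 0.19 from 72 h (adjusted p = 0.0232), a call lost without 1 week replicate 3, 1 week replicate 4, 72 h replicate 1 or 72 h replicate 2 (adjusted p = 0.067, 0.052, 0.097 and 0.11). The tallest Gja1 peak, at +1.6 kb (chr10:56378643-56379143), had 173 ± 23.7 in NSPs, 214 ± 26.1 at 72 h and 152 ± 11.8 at 1 week.

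Gjb6, the second astrocyte connexin, had its tallest peak beyond the gene end at +17.6 kb (chr14:57115752-57116252), with 1310.2, 623 and 589 in NSPs and 1175, 1205, 1340.2 and 1203 at 1 week. NSP replicate 1 lay among the 1 week libraries. The log2 fold change was 0.65 ± 0.16 with it (limma-trend adjusted p = 7.0e-04) and 1.02 without it. Upstream, at -12.2 kb (chr14:57145567-57146067), the NSP libraries had 119, 28.3 and 28.6 and those of 1 week 91.7, 79.5, 121 and 87.9, again with replicate 1 among the latter. The higher value at 1 week (1.01 ± 0.32, limma-trend adjusted p = 0.00629) was lost without NSP replicate 2 or NSP replicate 3 (adjusted p = 0.083 and 0.077), and was 1.69 without NSP replicate 1.

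Aldh1l1, a folate enzyme used to mark astrocytes, had its main peaks away from its start. The gene-start peak (chr6:90550492-90550992) held 89.3 ± 45.8 in NSPs, 40.1 ± 22.3 at 72 h and 68.1 ± 31.0 at 1 week. The lower value at 72 h was called (limma-trend adjusted p = 0.0073), but not without 72 h replicate 2 or NSP replicate 1 (adjusted p = 0.088 and 0.054). Its tallest peak, at -15.6 kb (chr6:90534967-90535467), fell from 2252 ± 88.7 to 1113 ± 79.6 at 72 h and was 1889 ± 225 at 1 week. The rise from 72 h to 1 week was not called with the loess correction. Of all peaks of the table with a mean of at least 1000, 93.9% were higher in this comparison. The +10.8 kb peak (chr6:90561278-90561778) had 360.1 ± 43.8 in NSPs, 633 ± 54.2 at 24 h, 389 ± 40.4 at 72 h and 612 ± 28.9 at 1 week, so that 24 h and 1 week were high and 72 h overlapped NSPs. With total-read scaling and with the loess correction, this peak was called higher at 72 h than in NSPs.

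S100b, a calcium-binding protein of astrocytes, lost accessibility at its start. The gene-start peak (chr10:76253541-76254041) had 438, 579.9 and 668 in NSPs, 318, 438 and 361 at 24 h, 256, 294 and 294 at 72 h and 173, 187, 180.4 and 170.5 at 1 week. The 1 week libraries lay below all others without TNF, and NSP replicate 1 was the lowest NSP library and overlapped 24 h. Its log2 fold changes against NSPs after 24 h, 72 h and 1 week were -0.58 ± 0.15, -0.98 ± 0.15 and -1.63 ± 0.14 (limma-trend adjusted p = 0.00168, 1.7e-06 and 1.5e-11). All 5 peaks between -5.0 and +4.2 kb were called lower at 1 week, and 4 of them at 24 h and 72 h, where +2.0 kb was not called (adjusted p = 0.118 and 0.124, limma-trend). At 24 h the call of -5.0 kb was lost without 24 h replicate 3 or NSP replicate 1 (limma-trend adjusted p = 0.18 and 0.089). That of +4.2 kb was lost without 24 h replicate 1, 24 h replicate 3, NSP replicate 2 or NSP replicate 3 (0.07, 0.085, 0.18 and 0.054). Total-read scaling lost both calls at 24 h, and that of -5.0 kb also at 72 h. The next peak upstream, at -5.7 kb (chr10:76247929-76248429), went the other way, with 37.4, 26.9 and 31.9 in NSPs, 54.6, 84.1 and 37.0 at 24 h, 64.3, 63.4 and 63.7 at 72 h and 53.8, 42.9, 50.6 and 52.5 at 1 week. One 24 h library lay among the NSP libraries, and those of 72 h and 1 week were above them. Its log2 fold changes were 0.78 ± 0.28, 0.98 ± 0.28 and 0.63 ± 0.26 (limma-trend adjusted p = 0.0211, 0.00322 and 0.033). The first call was lost without 24 h replicate 2 or NSP replicate 2 (adjusted p = 0.17 and 0.086), with the loess correction and in a fit of the compared groups. The last was lost without 1 week replicate 1, 1 week replicate 4, NSP replicate 2 or NSP replicate 3 (adjusted p = 0.068, 0.061, 0.13 and 0.066), with total-read scaling and with both replicate blocks. The -2.8 kb peak (chr10:76250823-76251323) fell from 149.7 ± 12.3 to 41.8 ± 8.12. The tallest, at -15.9 kb (chr10:76237666-76238166), went from 396 ± 23.1 to 522 ± 47.4 (limma-trend adjusted p = 0.00202). It lies within 1 kb of an end of the neighbouring gene Prmt2, so that its assignment to S100b is uncertain.

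**Figure D3:**
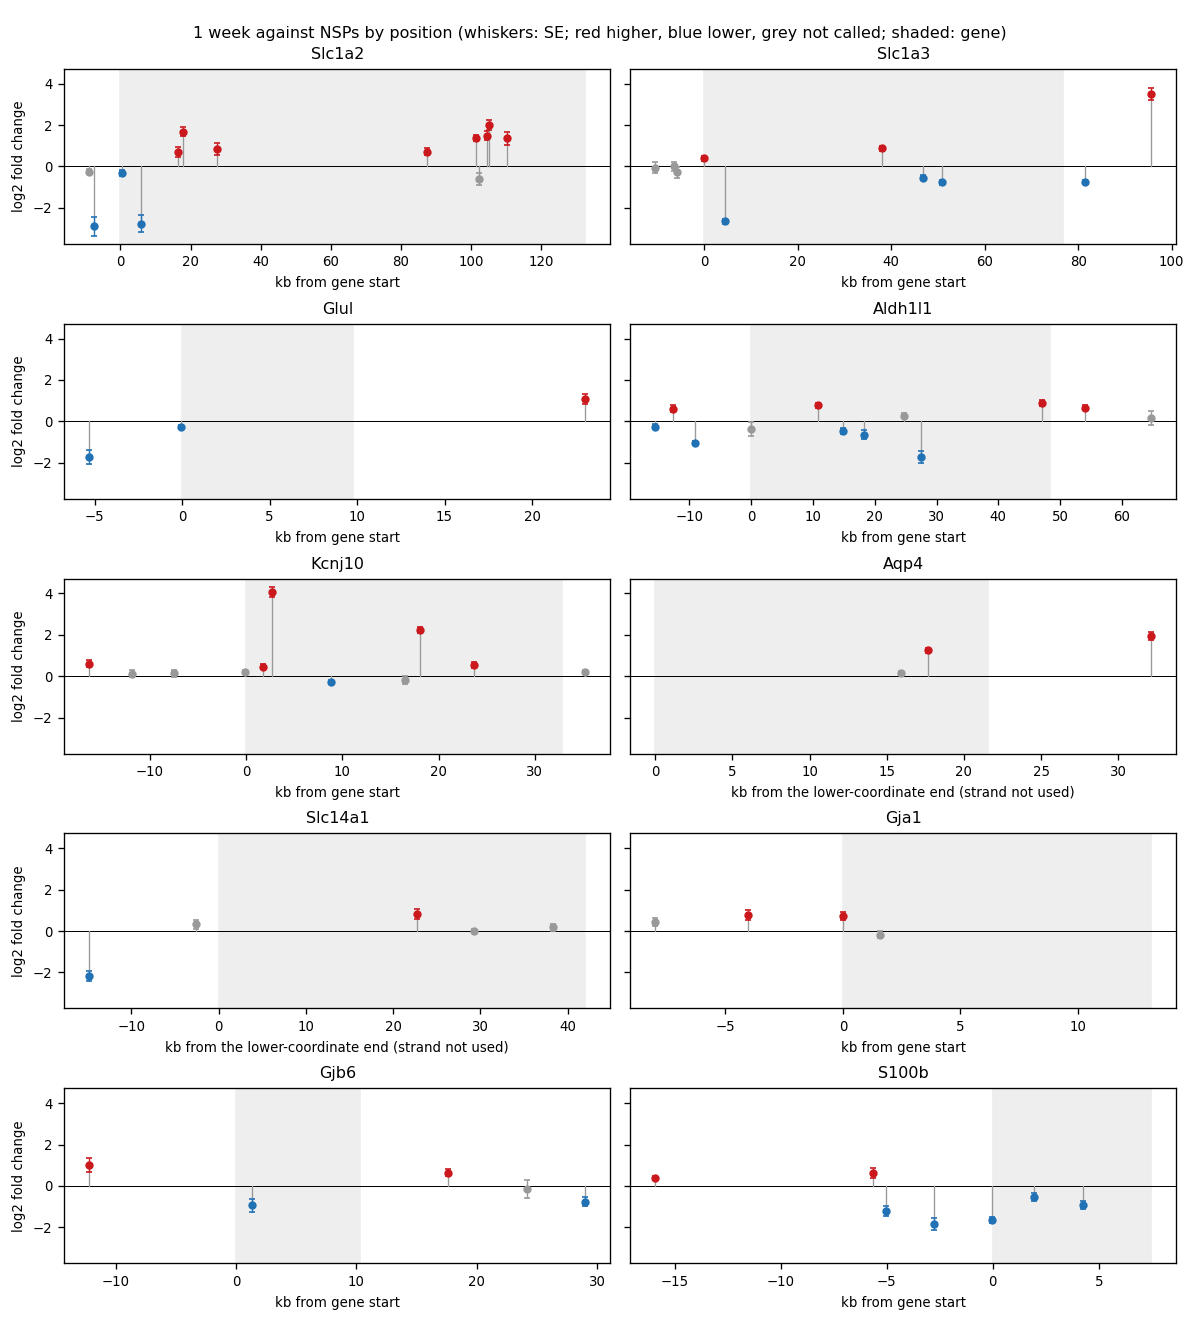
Log2 fold change of 1 week against NSPs (y axes, on log2(value + 1), whiskers SE) of each peak by its position in kb from the gene start, or from the lower-coordinate end for Aqp4 and Slc14a1 (x axes), 1 panel per gene, with the gene body shaded. Red peaks were called higher, blue lower and grey not called: the S100b peaks from -5.0 to +4.2 kb lie below 0, and those of Slc1a2 from +16.4 kb onward lie above it except at +102.2 kb.

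The 7 gene-start peaks were read against all gene-start peaks of the table. At 24 h none of the 7 was higher and 5 were lower, beside 3.63% and 42.8% of all 12289 gene-start peaks tested. At 72 h the numbers were 1 and 4, beside 6.16% and 59.2%, and at 1 week 2 and 3, beside 24.9% and 27.5%. These counts turned on NSP replicate 1. Without it, the Gja1 peak was called higher at 24 h (limma-trend adjusted p = 0.0057). The lower calls of Slc1a2 and Kcnj10 at 24 h (0.15 and 0.12) and of Aldh1l1 at 72 h (0.054) were lost. At 1 week the Kcnj10 peak was then called higher (0.012), and the lower calls of Glul and Slc1a2 were lost (0.14 and 0.23). With all libraries, 2 of the 7 were higher and 2 lower from 72 h to 1 week, beside 60.6% and 4.53%. TNF raised none and lowered 1 at each time, Kcnj10 at 24 h and S100b at 72 h, beside 1.17% and 0.488% of all gene-start peaks at 24 h and 2.95% and 0.732% at 72 h. Their median log2 fold change was -0.41 at 24 h, and that of all gene-start peaks was -0.30. The other 66 peaks had 28 higher and 20 lower at 1 week. Over the 6 group means, the gene-start peaks of the table most like that of Glul were those of Lbr, Thoc2l and Hipk2 (Pearson r = 0.999, 0.998 and 0.998), and 73 of 12288 had an r above 0.99. The closest to the S100b peak were Bmpr1b, Barhl2 and Col12a1 (0.995, 0.994 and 0.992), and to that of Kcnj10 Mrpl53, Smad1 and Yod1 (0.997, 0.991 and 0.991). None had an r above 0.99 with the Gja1 peak, for which Car14 came first (0.975). Each of these values rests on 6 points that share libraries and depth.

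From 72 h to 1 week, 19 of the 73 peaks were higher and 15 lower, beside 22.5% and 16.2% of all tested peaks. Without 72 h replicate 2 the numbers were 16 and 6. Across the whole table, direction went with peak height. Of the 9 of the 73 peaks with a mean of at least 1000 normalised reads, 7 were higher and none lower, beside 93.9% and 0.979% of the 2655 such peaks of the table. Of the 27 with a mean under 100, none was higher and 10 were lower, beside 8.08% and 21.3% of 48801. Median log2 fold changes were 0.65 and -0.52 for the 73 peaks, and 0.65 and -0.22 for all tested peaks of these heights. When each library was corrected by loess for the height of its peaks, 3 were higher and 13 lower, and with total-read scaling, which moved the median of all peaks to -0.31, 8 and 29. The edgeR test on recovered reads gave 15 and 19. Of the 34 calls, 4 held under all alternatives: the gain of the Kcnj10 +18.1 kb peak and the losses of Slc1a3 +4.5 kb, the S100b gene-start peak and Slc1a2 +102.2 kb.

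Under inflammatory conditions, fewer of the 73 peaks were called than over the time course. TNF at 24 h raised 5 and lowered 3 by limma-trend, beside 7.06% and 3.53% of all tested peaks. At 72 h the numbers were 5 and 5, beside 6.24% and 5.55%. Negative changes were more frequent than positive ones, at 48 of 73 peaks (65.8%, against 53.5% of all peaks) at 24 h and at 45 of 73 (61.6%, against 46.8%) at 72 h. The median changes were -0.10 and -0.07, and those of all peaks -0.03 and 0.03. Total-read scaling gave 5 higher and 5 lower at 24 h and 5 and 8 at 72 h, and the loess correction 5 and 5, and 4 and 8. The TNF contrasts at 24 h and 72 h share no library, and 50 of the 73 peaks had the same sign at both times, a share of 68.5% beside 65.9% of all peaks.

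All 3 peaks that TNF raised at both times under every alternative lie in the body of Aldh1l1. The +27.6 kb peak (chr6:90578077-90578577) had 25.0, 16.2 and 35.7 at 24 h and 162, 161 and 159.9 at 24 h with TNF, then 21.9, 26.3 and 34.4 at 72 h and 67.1, 127 and 97.2 at 72 h with TNF. The libraries with TNF lay above all those without at both times, and at 24 h also above the NSP libraries, which had 32.1, 75.4 and 53.2. TNF changed it by 2.67 ± 0.33 at 24 h and 1.76 ± 0.33 at 72 h on the log2 scale (limma-trend adjusted p = 1.8e-06 and 4.8e-04). The difference between both times, -0.91 ± 0.46, did not pass (adjusted p = 0.683). Untreated cells went the other way, to 14.8 ± 3.44 at 1 week.

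The +10.8 kb peak rose from 660.4, 571 and 669 to 897, 978 and 845 with TNF at 24 h, and from 359, 372 and 435 to 623, 631 and 646 at 72 h. The values with and without TNF did not overlap at either time. Its changes were 0.52 ± 0.11 and 0.71 ± 0.11 (limma-trend adjusted p = 0.00253 and 8.1e-05). At +14.8 kb (chr6:90565338-90565838) the means were 234 ± 35.6 and 363 ± 48.2 with TNF at 24 h, and 171 ± 4.44 and 292 ± 17.6 at 72 h. The gene-start peak of Aldh1l1 was not called at either time, with changes of -0.43 ± 0.37 and -0.24 ± 0.37. At -9.2 kb TNF raised the peak at 72 h (0.36 ± 0.10, adjusted p = 0.0159), a call lost with the loess correction and without 72 h replicate 2, 72 h TNF replicate 2 or 72 h TNF replicate 3 (adjusted p = 0.069, 0.074 and 0.086).

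**Figure D4:**
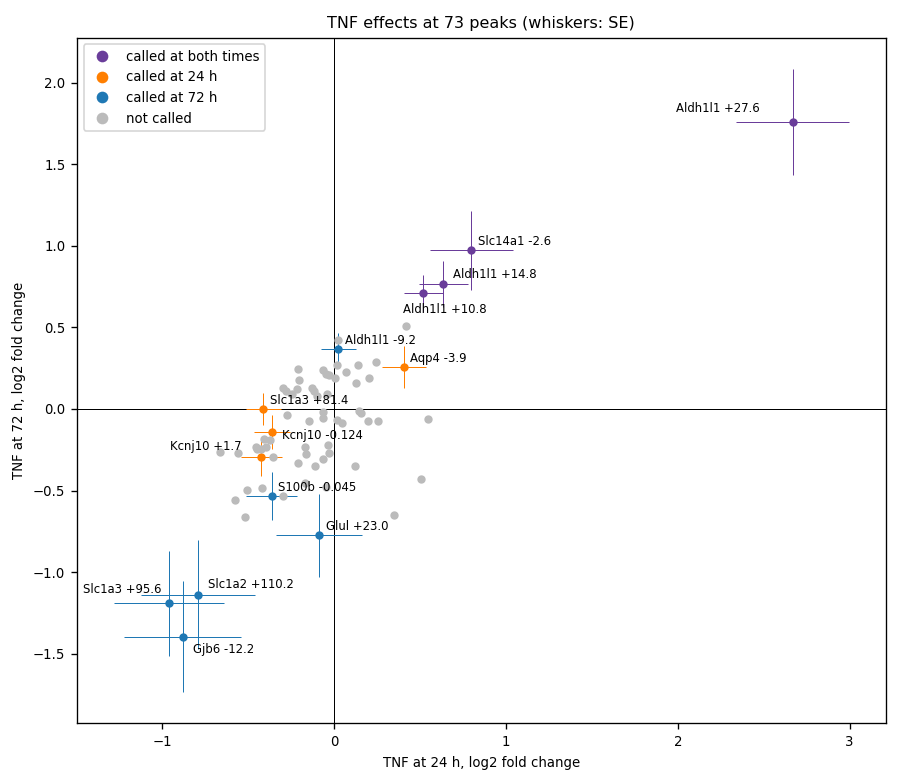
Log2 fold change with TNF at 24 h (x axis) and at 72 h (y axis) of the 73 peaks, on log2(value + 1). Coloured points with whiskers (SE) passed the test at 24 h, at 72 h or at both, and grey points at neither: Aldh1l1 +27.6 kb stands at 2.67 and 1.76, and Gjb6 -12.2 kb at -0.88 and -1.40.

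Outside Aldh1l1, TNF raised the Slc14a1 peak at -2.6 kb (chr18:78097232-78097732) at both times. It had 80.8, 56.1 and 99.8 at 24 h and 134, 127 and 142 with TNF, and 54.0, 70.6 and 65.0 at 72 h and 155, 79.8 and 155 with TNF. The groups did not overlap, though replicate 2 of 72 h with TNF was close to the untreated libraries. The changes were 0.80 ± 0.24 and 0.97 ± 0.24 (limma-trend adjusted p = 0.0303 and 0.0073). The call at 24 h was lost without 24 h replicate 1, 24 h replicate 2, 24 h TNF replicate 1, 24 h TNF replicate 2 or 24 h TNF replicate 3 (adjusted p = 0.068, 0.2, 0.079, 0.064 and 0.11), and that at 72 h without 72 h TNF replicate 1 or 72 h TNF replicate 3 (adjusted p = 0.06 and 0.063). The Aqp4 -3.9 kb peak rose with TNF at 24 h, from 303, 242 and 301 to 371, 347 and 398 (0.40 ± 0.13, adjusted p = 0.0394). It was lost without 24 h replicate 1, 24 h replicate 2, 24 h TNF replicate 1, 24 h TNF replicate 2 or 24 h TNF replicate 3 (adjusted p = 0.052, 0.22, 0.098, 0.055 and 0.16).

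Among the peaks that TNF lowered, the Gjb6 -12.2 kb peak had the largest called change. It had 71.7, 88.5 and 67.7 at 24 h and 37.1, 50.6 and 35.3 with TNF, and 100.4, 83.7 and 90.5 at 72 h and 39.3, 31.0 and 32.4 with TNF. At both times the libraries with TNF lay below those without. At 72 h the change was -1.40 ± 0.34 (limma-trend adjusted p = 0.00621), held under every alternative, and at 24 h it was -0.88 ± 0.34 (adjusted p = 0.101). Both glutamate transporters had such a peak. Slc1a3 +95.6 kb fell from 76.2 ± 7.46 at 72 h to 34.5 ± 14.8 with TNF (-1.19 ± 0.32, limma-trend adjusted p = 0.0135), and Slc1a2 +110.2 kb from 64.5 ± 21.4 to 29.1 ± 11.3 (-1.14 ± 0.33, adjusted p = 0.0231). In addition, Glul +23.0 kb was lower with TNF at 72 h, with 74.8 ± 17.0 against 127 ± 19.1 (adjusted p = 0.0424). The S100b gene-start peak had 256, 294 and 294 at 72 h and 191, 195 and 194 with TNF, without overlap (-0.54 ± 0.15, limma-trend adjusted p = 0.015). The call was lost for Slc1a3 without 72 h replicate 2, 72 h TNF replicate 1 or 72 h TNF replicate 2 (adjusted p = 0.057, 0.069 and 0.079), for Slc1a2 without 72 h replicate 1, 72 h TNF replicate 1 or 72 h TNF replicate 3 (adjusted p = 0.16, 0.067 and 0.15), for S100b without 72 h replicate 2 or 72 h replicate 3 (adjusted p = 0.06 and 0.062), and for Glul without 24 h TNF replicate 2, 24 h TNF replicate 3, 72 h replicate 1, 72 h replicate 3, 72 h TNF replicate 1, 72 h TNF replicate 2 or 72 h TNF replicate 3 (adjusted p = 0.052, 0.05, 0.14, 0.14, 0.055, 0.056 and 0.23).

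At 24 h, TNF lowered the start of Kcnj10. The gene-start peak had 985, 1065 and 909 at 24 h and 746, 807 and 743 with TNF. The +1.7 kb peak had 1505, 1503 and 1099.9 without TNF and 1060.3, 1039 and 936 with it. Neither pair of groups overlapped. The changes were -0.36 ± 0.11 and -0.42 ± 0.12 (limma-trend adjusted p = 0.0228 and 0.0194). The gene-start call was lost without 24 h replicate 1, 24 h replicate 2, 24 h TNF replicate 1 or 24 h TNF replicate 3 (adjusted p = 0.068, 0.12, 0.082 and 0.092), and the other without 24 h replicate 1, 24 h replicate 2 or 24 h TNF replicate 3 (adjusted p = 0.13, 0.12 and 0.11). Slc1a3 +81.4 kb (chr15:8629175-8629675) fell from 722, 748 and 698 to 529.7, 569.9 and 529.6 (-0.41 ± 0.10, adjusted p = 0.00661) under every alternative, while its change at 72 h was -0.00 ± 0.10.

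The Kcnj10 +2.7 kb peak did not pass the test although its groups with and without TNF did not overlap at either time. It had 453, 524 and 433 at 24 h with TNF and 692, 679.9 and 676 at 72 h with TNF. The changes were -0.58 ± 0.27 and -0.56 ± 0.27 (limma-trend adjusted p = 0.194 and 0.194). Without NSP replicate 1, which belongs to neither contrast but enters the estimate of the spread, the same changes had limma-trend adjusted p = 0.00013 and 0.00019. In that fit TNF raised 6 and lowered 11 of the 73 peaks at 24 h, and raised 6 and lowered 10 at 72 h. The calls also grew over the whole table, to 9.43% of all tested peaks higher and 6.1% lower at 24 h and 9.17% and 8.31% at 72 h. The added losses at 24 h were Kcnj10 +2.7 and +18.1 kb, the S100b gene-start peak, Gjb6 -12.2 kb, Slc1a3 +95.6 kb, Slc1a2 +101.4 and +105.1 kb and Aldh1l1 +47.1 kb. At 72 h they were Kcnj10 +1.7 and +2.7 kb, Gjb6 +17.6 kb, Slc1a3 -6.5 kb and Slc14a1 -19.3 kb. The difference of the TNF effect between 72 h and 24 h was not called for any of the 73 peaks by limma-trend, beside 0% of all peaks higher and 0.00112% lower. Neither edgeR nor DESeq2 called any of the 73 peaks for this difference. Without NSP replicate 1, limma-trend called 1 lower, Slc14a1 -19.3 kb (149, 202 and 182 at 24 h, 216, 242 and 303 with TNF, 428, 315 and 329 at 72 h and 250.3, 245 and 293 with TNF), with -0.94 ± 0.22 and adjusted p = 0.047. At this peak TNF values were above the untreated at 24 h and below them at 72 h.

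The effect of TNF was also read in peaks grouped by their change from NSPs to 1 week, since these libraries are not part of the TNF contrasts. Of the 30 peaks higher at 1 week than in NSPs, 23 had a negative change with TNF at 72 h (76.7%, against 46.6% of the 29967 peaks of the table higher at 1 week), with a median of -0.24 (all such peaks 0.03). At 24 h 20 of the 30 were negative (66.7%, against 50.1%), with a median of -0.14. Among the 23 peaks lower at 1 week, 9 were negative at 72 h (39.1%, against 51.7% of the 29870 such peaks), with a median of 0.13, and 14 at 24 h (60.9%, against 57.4%), with a median of -0.11. These are descriptions, and the peaks of a gene are not independent.

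Other genes of astrocyte homeostasis were counted through 218 peaks of 25 genes chosen by the same window and not shared with the 10 genes. At 1 week 79 of them were higher and 72 lower than in NSPs, 36.2% and 33% beside the 33.7% and 33.6% of all peaks. By class, of 55 peaks of endfoot anchors, such as Mlc1 and Dag1, 32 were higher and 10 lower, and of 60 peaks of other transporters 11 were higher and 27 lower. Of 23 peaks of other potassium channels 12 were higher and 6 lower. At the gene start of Mlc1, a membrane protein of endfeet, normalised reads were 1322 ± 368 in NSPs and 2494 ± 164 at 1 week (limma-trend adjusted p = 5.07e-08). TNF at 24 h raised 12 of the 218 (5.5%, beside 7.06% of all peaks) and lowered 24 (11%, beside 3.53%). At 72 h it raised 10 (4.59%, beside 6.24%) and lowered 21 (9.63%, beside 5.55%). The classes differed. TNF lowered 10 and 9 of the 60 transporter peaks at 24 h and 72 h, and 9 and 8 of 48 peaks of metabolic genes. It lowered 3 and 2 of the 55 peaks of endfoot anchors, and 1 at each time of 24 sodium pump peaks and of 23 potassium channel peaks. Of 8 connexin and pannexin peaks it lowered 0 at either time. Slc4a4, with 20 peaks, and Dtna and Slc6a11, with 19 each, weigh most in these counts.

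The 20 kb limit left out some near peaks. The nearest one outside the window of Slc14a1, 20123 bp from the gene, had means of 69.7 in NSPs and 41.9 at 1 week, and that of Aldh1l1, at 20141 bp, 141 and 66.6. The nearest outside that of Kcnj10, at 20901 bp, had 99.7 and 27.2.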

How the data were processed

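ATAC-seq libraries were made from unsorted cells, and the authors deposited 1 table of 90154 peaks in 19 libraries. Per the labels' processing notes and the study's methods, reads were trimmed with Trim Galore, checked with FastQC and aligned with Bowtie2 to mm10, mitochondrial reads were removed with SAMtools, peaks were called with MACS2, blacklisted regions were removed, and peaks were compared with DiffBind. Tool versions, how duplicates were handled, whether reads were shifted for the transposase, and the scaling are not given in the sources used here. The deposited signal is a read count per peak divided by a size factor for each library: divided by the smallest entry of its column, 100% of values came out whole, within 0.01 read.

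Peaks of 500 bp were assigned to genes by RefSeq coordinates (GRCm38.p6). Values were transformed to log2(value + 1), filtered by filterByExpr of edgeR (4.0.16, minimum count 10), which kept 88919 peaks, and fitted with limma-trend (3.58.1, R 4.3.3) with a mean for each of 6 groups. Tests were two-sided and adjusted by Benjamini-Hochberg over all tested peaks, and a call had an adjusted p under 0.05. SE are those of the fit and SD those of the libraries. A count test was run as an alternative on the recovered reads (edgeR quasi-likelihood, DESeq2 1.42.0), and the self-test on simulated data preceded the fits. Scaling by total reads, a loess correction for peak height, a pseudocount of 5, no filter, a fit of the compared groups, replicate blocks, a 5 kb window and leaving out each library were the other alternatives.

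The members and lists were chosen with earlier results of these data known. For each gene the text names the gene-start peak, the peak with the highest mean, the one with the largest SD over group means, and the called peak with the smallest p for TNF at each time (31 peaks). Other peaks with values (Slc1a2 +102.2, +101.4, +104.5 and +105.1, Slc1a3 +4.5 and +38.1, Aqp4 -5.7, Kcnj10 +18.1 and +35.3, Aldh1l1 -9.2 and +14.8, S100b -5.7 and +2.0, and Slc14a1 -19.3 kb) were chosen after their values were seen. Promoter sequences are from RefSeq, and 8 of the 10 genes matched.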

Additional observations from a re-analysis of the deposited data

Results flagged for a closer look

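In 2 of the 31 groups of 4 libraries examined, 1 library stood far from the other 3, and chance gives this in about 1 of 20 groups. At Kcnj10 +1.7 kb, 1 week replicate 3 had 2159 normalised reads against 1833 to 1874 in the others, and at Kcnj10 +2.7 kb it had 2047 against 1662 to 1725. This library was the shallowest, with 9640256 reads, and the part of depth was not tested.

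At Slc14a1 -19.3 kb the changes with TNF went in opposite directions, by 0.51 at 24 h and -0.43 at 72 h on the log2 scale, and the libraries with and without TNF did not overlap at either time. The test of the difference gave -0.94 with a limma-trend adjusted p = 0.57.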

How the results depend on the processing

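Among the 31 named peaks, 3966 results with 1 library left out and 1824 under other settings kept their side of the threshold. Those called in the main fit also kept their direction, and the direction of uncalled results was not compared. Another 131 and 74 lost the call, 26 and 45 gained one, and 6 that were called in the main fit turned direction. Scaling by total reads in peaks gave 23 higher and 11 lower at 24 h, 14 lower at 72 h, 8 higher and 29 lower from 72 h to 1 week, and 5 and 8 lower with TNF at 24 h and 72 h. The loess correction gave 3 higher from 72 h to 1 week and 5 and 8 lower with TNF at 24 h and 72 h. With the compared groups alone, 9 and 10 peaks were lower with TNF at 24 h and 72 h, and 1 had a lower TNF effect at 72 h than at 24 h. edgeR and DESeq2 each gave 5 lower with TNF at 24 h. In the 5 kb window, with 47 peaks, 15 were higher at 72 h and 2 lower with TNF at 72 h. The cause of these shifts was not tested, other than the smaller number of peaks in the 5 kb window.

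With 1 library left out, the counts were 12 to 21 higher and 13 to 22 lower at 24 h, 20 to 25 and 20 to 26 at 72 h, 26 to 32 and 19 to 23 at 1 week, and 16 to 22 and 6 to 17 from 72 h to 1 week. With TNF they were 3 to 6 and 1 to 11 at 24 h, and 3 to 6 and 2 to 10 at 72 h, with 0 to 0 and 0 to 1 for the difference of both. NSP replicate 1 gave the highest of the TNF counts, 24 h replicate 1 gave the lowest at 24 h (3 and 1), and 72 h TNF replicates 3 and 1 gave the lowest at 72 h (3 and 2). Without 24 h replicate 3, 13 were lower at 24 h, and without 72 h replicate 2, 6 were lower from 72 h to 1 week.

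On the log2 scale, Slc1a3 +81.4 kb turned from 72 h to 1 week to -0.0066 with total reads and -0.10 with the loess correction, which also turned the Glul gene-start peak to -0.036 there, Kcnj10 +1.7 kb at 72 h against NSPs to 0.13, and Slc14a1 -12.7 kb to 0.029 at 72 h against NSPs and -0.22 from 72 h to 1 week.

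Deviations of libraries with the same replicate number correlated at -0.03 to 0.11. Such values cannot tell whether these libraries shared a brain or a preparation. With the title number as a replicate block, TNF lowered 3 peaks at 24 h and 4 at 72 h, and with the number in the library name 3 and 3. The block by title number gave 15 higher and 22 lower at 24 h, 24 and 24 at 72 h, 28 and 22 at 1 week, and 16 and 13 from 72 h to 1 week. Libraries ranged from 9640256 to 39349111 reads, and peaks with few reads had the widest errors.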
